A study of Mus musculus with 2 samples.

Results

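Pkhd1 and Ahi1, a gene of recessive polycystic kidney disease and a gene of the ciliary transition zone, each held 1 region in a chromatin immunoprecipitation and sequencing (ChIP-seq) experiment against Smyd2, a lysine methyltransferase of histones and other proteins. The regions were found as the rows of both deposited lists whose gene name is Pkhd1 or Ahi1. There were 2 such rows among 422, and both were in the list from Pkd1 null cells (2 of 235 regions), with 0 of 187 in the list from Pkd1 wild-type cells. The genes were chosen by their presence in the deposited null list, which is itself a measured outcome, so their presence, reads and positions below are descriptions with no test.

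The cells were MEK cells, renal epithelial cells from kidney of C57BL/6 mouse embryos, either Pkd1 wild type or Pkd1null/null. Per the labels, both were grown at 33 °C in the same medium with 2% fetal bovine serum, interferon-gamma, insulin, selenite, transferrin, ethanolamine, hydrocortisone, a thyroid hormone and penicillin with streptomycin, and both were precipitated with the same antibody lot. Each genotype had 1 library, so no value has a replicate error. Whether either line is a single clone is not given in the sources used here, and region lists hold no expression values against which the cell type could be checked. Input DNA, a control antibody or cells without Smyd2 were not analysed here, and the reads therefore stand without a measured background.

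Renal tubule cells carry a primary cilium, a sensory projection of the cell membrane built on a basal body. Pkd1 encodes polycystin-1 and Pkd2 encodes polycystin-2, membrane proteins found at the cilium whose human counterparts are mutated in dominant polycystic kidney disease. Pkhd1 encodes fibrocystin, also called polyductin, a large single-pass membrane protein of the cilium and basal body in collecting ducts and bile ducts. Ahi1 encodes jouberin, a protein of the transition zone, the gate at the base of the cilium that controls which proteins enter, and its human counterpart is mutated in Joubert syndrome.

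The sequences upstream of the annotated starts of both genes are shown because distances from them to listed regions are given below. Positions along each gene were instead measured from the 5′ end of the gene span, which is close to but not the same as a start. Each sequence is the 250 bases before a start in the RefSeq promoter table (GRCm38.p6), written 5′ to 3′ on the strand of the gene, with CG dinucleotides in capitals. The table gives 1 start for Pkhd1, on the minus strand of chromosome 1 (20618058 to 20618307), and 2 starts for Ahi1, on the plus strand of chromosome 10 (20952297 to 20952546 and 21040570 to 21040819). The first Ahi1 stretch lies inside the gene span, which begins at 20952232.
Pkhd1: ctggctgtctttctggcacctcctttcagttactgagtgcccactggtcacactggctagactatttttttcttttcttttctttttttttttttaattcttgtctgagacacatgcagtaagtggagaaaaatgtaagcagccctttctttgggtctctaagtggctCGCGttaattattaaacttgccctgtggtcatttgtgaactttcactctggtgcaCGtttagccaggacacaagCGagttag
Ahi1, first start: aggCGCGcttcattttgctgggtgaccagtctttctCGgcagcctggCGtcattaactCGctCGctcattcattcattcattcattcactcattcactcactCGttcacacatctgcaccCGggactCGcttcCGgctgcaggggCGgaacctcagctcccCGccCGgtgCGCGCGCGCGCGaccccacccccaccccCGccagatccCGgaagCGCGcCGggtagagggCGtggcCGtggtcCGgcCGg
Ahi1, internal start: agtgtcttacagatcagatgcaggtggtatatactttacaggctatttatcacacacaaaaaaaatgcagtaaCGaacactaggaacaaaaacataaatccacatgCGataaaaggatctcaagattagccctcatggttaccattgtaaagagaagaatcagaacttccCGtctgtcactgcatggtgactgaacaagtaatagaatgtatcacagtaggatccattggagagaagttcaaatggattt

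The first Ahi1 start is rich in CG, and the other 2 are not. Searching for CG, which reads the same on both strands, found 28 at the first Ahi1 start, 4 at Pkhd1 and 3 at the internal Ahi1 start, and the G and C content was 65.6%, 42.0% and 37.6%, respectively. Over the 32851 starts of the table the median was 6 CG and 52.4% G and C, 92.1% of starts held at least 1 CG, and 7.61% held 28 or more. No listed region of either library overlapped any of these windows. The share of all starts in the table with an overlapping region was not computed, so nothing is read from this absence. The nearest listed region lay 46.3 kb from the Pkhd1 window, 72.6 kb from the first Ahi1 window and 14.8 kb from the internal Ahi1 window, and in each case it was the null-list region assigned to that gene.

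The Pkhd1 region was at chromosome 1, 20571001 to 20571750 (GRCm38), 750 bp wide, and the authors' list gives it as overlapping Pkhd1 (ENSMUSG00000043760). Its deposited log2 value was 4.17, which is 18 reads (exact Poisson 95% interval 10.7 to 28.4, counting error only). Pkhd1 is a very long gene, spanning 20057779 to 20618082 (560.3 kb) in the RefSeq gene table of GRCm38.p6. The midpoint of the region lay 46.7 kb downstream of the 5′ end, at 8.34% of the length of the gene, and no other gene of the table overlapped the region. The gene table gives spans only, so whether the region is exonic or intronic was not analysed here.

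The Ahi1 region was at chromosome 10, 21025201 to 21025800, 600 bp wide, and is given as overlapping Ahi1 (ENSMUSG00000019986). Its deposited log2 value was 3.70, or 13 reads (Poisson interval 6.92 to 22.2). Ahi1 spans 20952232 to 21080429 (128.2 kb). The midpoint lay 73.3 kb downstream of the 5′ end, at 57.2% of the length of the gene, and 15.3 kb upstream of the internal start. Here too no other gene overlapped the region. Both regions were therefore in the body of the gene, near the 5′ end of Pkhd1 in proportion to its length and past the middle of Ahi1. The Poisson intervals of their reads overlapped widely.

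**Figure D1:**
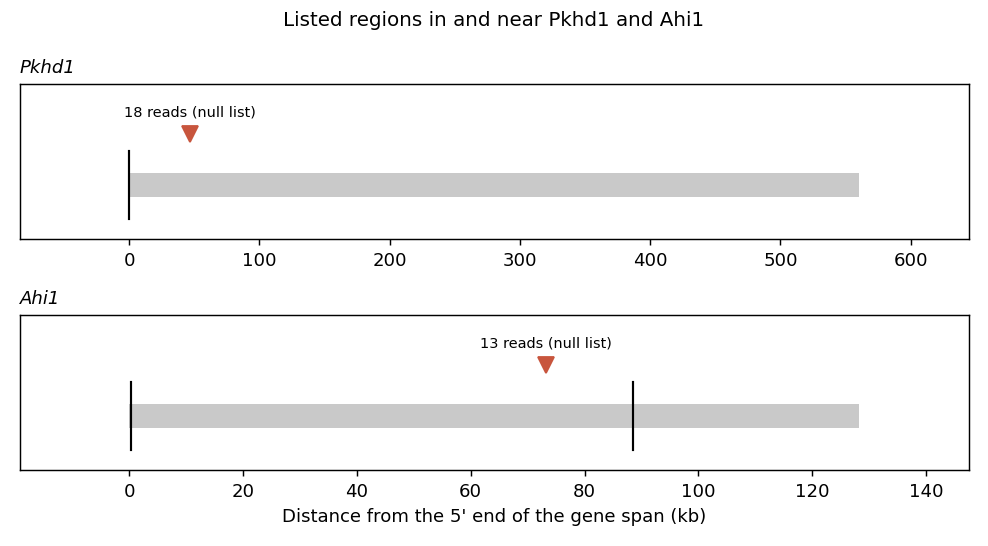
Spans of Pkhd1 (560.3 kb) and Ahi1 (128.2 kb) as grey bars, by distance in kb from the 5′ end of the gene, with RefSeq starts as vertical lines and listed regions as triangles labelled with reads and library. The null-list regions of 18 and 13 reads lie inside the genes, away from the starts, and no wild-type-list region falls in either panel.

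Both regions had few reads beside the highest in the list. The null list ran from 11 to 1396 reads with a median of 13 (quartiles 12 and 16). For Pkhd1, 32 null-list regions had more reads, 13 others had the same 18 and 189 had fewer, so its rank was 33 to 46 of 235. Among the 204 null-list regions not shared with wild type, which leaves out most regions with high reads, its best rank among ties was 13. For Ahi1, 114 regions had more reads, 44 others had the same 13 and 76 had fewer, a rank of 115 to 159. Among the same 204 regions the best rank of Ahi1 among ties was 87. Thus 13.6% of null-list regions had more reads than Pkhd1 and 48.5% had more than Ahi1, whose reads equal the list median. Together they are a small part of the 6718 listed null reads, 0.268% in Pkhd1 and 0.194% in Ahi1.

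Reads depend on region width, so each region was also set beside those of its own width. Among the 148 null-list regions of 750 bp, reads ran from 12 to 23 with a median of 13, and 7 had more than the 18 of Pkhd1 while 132 had fewer. Among the 51 null-list regions of 600 bp, reads ran from 11 to 21 with a median of 12, and 12 had more than the 13 of Ahi1 while 26 had fewer. Per 150 bp of width, the step in which the widths are given, Pkhd1 held 3.60 reads and Ahi1 3.25, against a list median of 2.83. By that measure the best ranks among ties were 36 for Pkhd1 and 58 for Ahi1 of 235, against 33 and 115 by reads alone. The place of Ahi1 thus moved upward by reads per 150 bp and that of Pkhd1 hardly moved. Among regions of the same width, a smaller share had more reads than in the whole list for both genes. This was 7 of 148 against 32 of 235 for Pkhd1, and 12 of 51 against 114 of 235 for Ahi1. The comparison among regions of the same width was added after the values were seen.

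**Figure D2:**
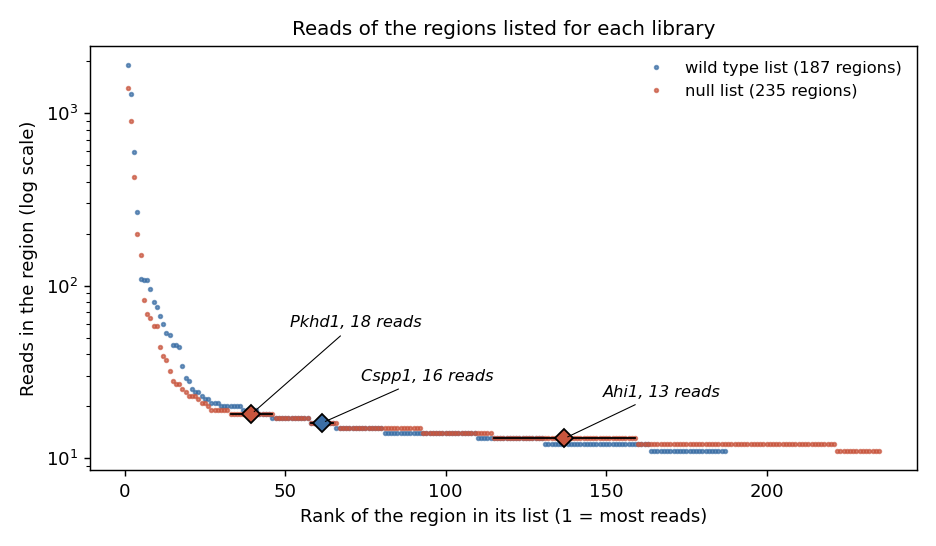
Reads per region (log scale) against the rank of the region in the wild-type (187 regions, blue) and null (235 regions, red) lists; diamonds mark the cystic and cilium genes named in either list and horizontal lines the ranks tied with them. Pkhd1 (18 reads), Cspp1 (16 reads) and Ahi1 (13 reads) lie on the flat part of the curves, far below the regions of 100 reads or more.

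On chromosome 1, the Pkhd1 region was 1 of 3 with the highest reads of the 14 null-list regions, all at 18. On chromosome 10, the Ahi1 region ranked 6 by reads among 12 null-list regions, the highest of which held 27 reads. The closest null-list regions were 3545 kb from the Pkhd1 region (18 reads, assigned to no gene) and 2935 kb from the Ahi1 region (11 reads, assigned to Taar4, a trace amine receptor gene). The usual spacing between null-list regions was not computed, so these distances do not show whether either region was unusually isolated.

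In the wild-type list no region overlapped either gene. The nearest wild-type region to the Pkhd1 span was 3711 kb away, in Stau2, which encodes an RNA-binding protein (12 reads), although chromosome 1 had 14 wild-type regions. The nearest to the Ahi1 span was 1350 kb away (14 reads, assigned to no gene), with 12 wild-type regions on chromosome 10. The lists give no reads at places that were not listed, so the wild-type reads at these 2 positions are unknown, and absence from the list does not show that the libraries differed there.

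Being in 1 list only was usual at these read numbers. Of the 14 null-list regions with 18 reads, 2 overlapped a wild-type region, and of the 45 with 13 reads, 1 did. Over all null-list regions of 13 to 18 reads, 9 of 127 were also listed in wild type, against 13 of 14 with 30 or more reads. In the wild-type list, 6 of 89 regions of 13 to 18 reads were also listed in null.

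The null-list regions most like the Pkhd1 region, with the same 18 reads and the same 750 bp, numbered 8, of which 4 were assigned to genes with a symbol other than a RIKEN or predicted name. They were in Ccdc6, in Wwox, which encodes an oxidoreductase with WW domains, in Kcnab2, a potassium channel beta subunit gene, and next to Mxi1, which encodes a repressor that binds MAX. For Ahi1, 12 null-list regions shared its 13 reads and 600 bp, and 8 were assigned to such genes. The first 6 by name were Atp5c1, an ATP synthase subunit gene, Atrnl1, an attractin-like gene, Cacng3, a calcium channel gamma subunit gene, Fstl5, a follistatin-like gene, Ralgps1, an exchange factor gene for Ral GTPases, and Rps6kc1, a kinase gene. None of these 10 regions overlapped a wild-type region. Of all null-list regions 31 of 235 did, and of those with 13 to 18 reads 9 of 127, so nothing is read from that count. Cacng3 was nevertheless also named in the wild-type list, for another region of 15 reads. Likeness here rests on 2 numbers in 1 library.

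Pkd1 and Pkd2 were named in neither list. Of all 21883 protein-coding genes, 0.375% were named in wild type and 0.512% in null, so nothing is read from this absence. The nearest region to Pkd1, at chromosome 17, 24548689 to 24596514, was 442.2 kb away in the wild-type list (15 reads, in Pdpk1). For Pkd2, at chromosome 5, 104453982 to 104505819, it was 1075 kb away in wild type (21 reads, in Lrrc8c) and 2582 kb away in null (12 reads, in Wdfy3). Smyd2 itself, on chromosome 1, was 30010 kb from the nearest wild-type region and 913.4 kb from the nearest null region. Pkd1 spans 47.8 kb and Pkd2 51.8 kb, against 560.3 kb for Pkhd1 and 128.2 kb for Ahi1.

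The genes that flank Pkhd1 and Ahi1 were not named in either list. Since only 0.375% of all protein-coding genes were named in wild type and 0.512% in null, nothing is read from this. On the 5′ side of Pkhd1 the nearest protein-coding gene was Il17a, a cytokine gene, 112.8 kb from the gene and 159.2 kb from the region. On its 3′ side was Tfap2b, a transcription factor gene of the developing distal nephron, 818.9 kb away. Ahi1 was flanked on its 3′ side by Myb, a transcription factor gene, 44.5 kb from the gene and 99.1 kb from the region, and on its 5′ side by Pde7b, a cAMP phosphodiesterase gene, 227.2 kb away.

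To place both genes among others of the same pathway, 123 genes in 3 lists were examined: 33 of cystic kidney disease and the polycystin family, 26 of the transition zone and its partners, and 64 other cilium and ciliopathy genes. In the null list 2 of the 123 were named, Pkhd1 and Ahi1 (1.63%), where 0.512% of all 21883 protein-coding genes were named. Since both were chosen because they are named there, nothing is read from that difference. In the wild-type list 1 of the 123 was named (0.813%, against 0.375% of all protein-coding genes), and it was Cspp1, a transition-zone list member that encodes a centrosome and spindle pole protein whose human counterpart is mutated in Joubert syndrome. The 64 intraflagellar transport, BBSome and other cilium genes had none in either list. At these low shares over all protein-coding genes, nothing is read from that count.

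The Cspp1 region was at chromosome 1, 10046251 to 10047000, 750 bp wide, and held 16 wild-type reads (Poisson interval 9.15 to 26.0), a rank of 58 to 65 of 187. It lay 8.51 kb inside the nearer end of the 98.7 kb gene (ENSMUSG00000056763). The nearest null-list region was 1413 kb away. No cystic or cilium gene of the 123 was named in both lists, where 0.0685% of all protein-coding genes were (15 of 21883), so nothing is read from that count.

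**Figure D3:**
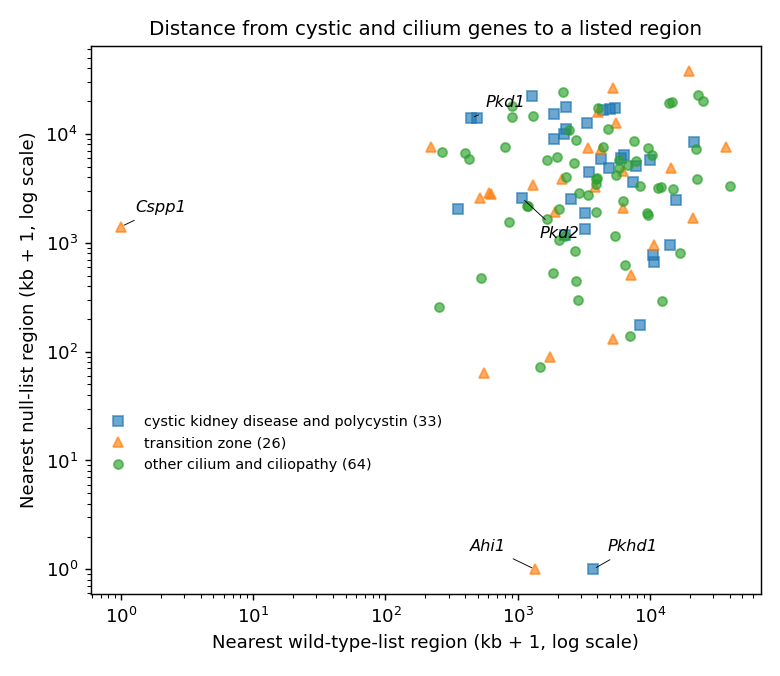
Distance in kb, plus 1 and on log scales, from each of 123 cystic and cilium genes to the nearest region of the wild-type list (horizontal) and of the null list (vertical); symbols mark the 3 gene lists. Pkhd1 and Ahi1 lie at distance 0 in the null list and Cspp1 in the wild-type list, while all other genes, Pkd1 and Pkd2 among them, are over 50 kb from any region.

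Giving regions to genes by span or within up to 50 kb left the same counts. By overlap with the gene span, 2 of the 123 genes had a null-list region (0.562% of all protein-coding genes did) and 1 had a wild-type-list region (0.434%). Within 5 kb the counts were again 2 in null (0.631% of all) and 1 in wild type (0.498%), and within 50 kb 2 (1.61%) and 1 (1.33%). Within 100 kb, a window added after the values were seen, they were 5 in null (4.07%, against 2.65% of all) and 1 in wild type (0.813%, against 2.18%). In these counts too the null-list members include Pkhd1 and Ahi1, which were chosen for being there.

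The median distance from the 123 genes to the nearest region was 3896 kb in wild type and 3892 kb in null, beside 4541 kb and 3733 kb over all protein-coding genes, of which 256 had no null-list region on their chromosome. Within 1 Mb of a region were 18 of the 123 genes in wild type and 22 in null, Pkhd1 and Ahi1 among the latter. The share of all protein-coding genes within 1 Mb was not computed, so nothing is read from these counts. Distances of neighbouring genes depend on the same regions and are not independent of each other.

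Both genes are long, and genes named in either list were longer by median than protein-coding genes in general. Pkhd1 and Ahi1 are themselves among the genes named in null, and whether length bore on their listing was not tested. Pkhd1 was the longest of the 123 genes and Ahi1 the 15th, and the median of the 123 was 42.1 kb. Over all protein-coding genes, whose median was 17.2 kb, only 0.823% were longer than Pkhd1 and 8.15% longer than Ahi1. The genes named in the null list had a median length of 104.7 kb, and those named in the wild-type list 101.5 kb.

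Genes of 100 kb or longer were named more often than shorter ones in both lists. Most regions with a gene name overlapped the span of that gene, 126 of 133 in null and 94 of 100 in wild type. Naming therefore depends on the span by definition, and nothing further is read from the shares. The intervals treat genes as independent within 1 library. In the null list 0.278% of genes under 100 kb were named (54 of 19455, Wilson 95% interval 0.213 to 0.362), 1.87% of genes of 100 to 300 kb (35 of 1872, interval 1.35 to 2.59), the class of Ahi1, and 4.14% of genes of 300 kb or longer (23 of 556, interval 2.77 to 6.13), the class of Pkhd1. In the wild-type list the shares were 0.211% (interval 0.155 to 0.286), 1.34% (interval 0.906 to 1.96) and 2.88% (interval 1.78 to 4.62), the last 2 intervals overlapping. Of the 180 genes longer than Pkhd1, 13 were named in null (7.22%) and 8 in wild type (4.44%). Among the 123 cystic and cilium genes, 4 were 300 kb or longer, of which Pkhd1 was named, 17 were of 100 to 300 kb, of which Ahi1 was named, and 102 were shorter, of which Cspp1 was named in wild type and none in null. The part of gene length in the listing of Pkhd1 and Ahi1 was not tested. The length classes were chosen after the lists had been seen.

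**Figure D4:**
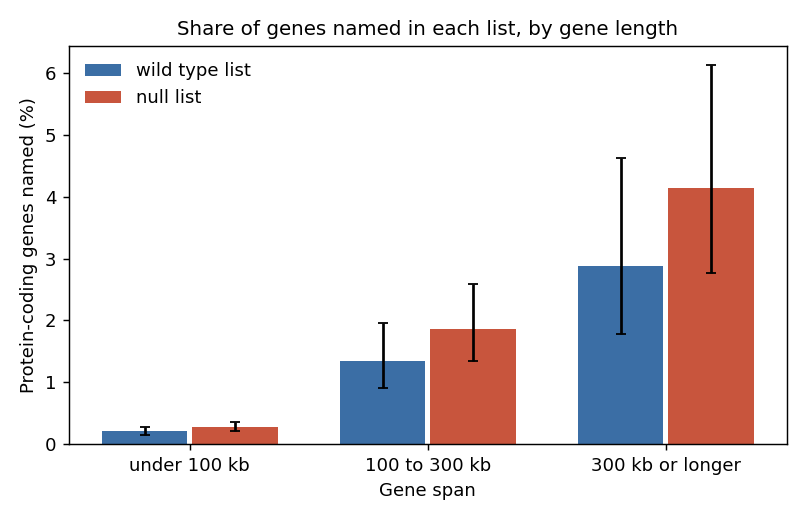
Share of protein-coding genes named in the wild-type (blue) and null (red) lists, in percent, by length of the gene span, with Wilson 95% intervals as error bars. The share rises with length in both lists, from 0.211% and 0.278% below 100 kb, to 1.34% and 1.87% in the class that holds Ahi1 and to 2.88% and 4.14% in the class that holds Pkhd1.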

How the data were processed

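Smyd2 ChIP-seq was compared between 1 Pkd1 wild-type and 1 Pkd1 null library. The authors deposited 1 list of regions per library, with a gene, an orientation, a distance and, per the file headers, a log2 value for the library's mapping file. Raised as a power of 2, the value was whole (relative tolerance 0.001) in all 187 and 235 regions and was read as reads not scaled to depth. Coordinates are GRCm38, per the submitters' processing notes. Aligner, region caller, threshold and control: not given in the sources used here. Total depth is unknown, so reads are not compared between libraries, and intervals cover counting error only.

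Regions were matched to genes by the deposited gene name, and to RefSeq spans (GRCm38.p6) by overlap of at least 1 bp, in Python 3.11.15 with pandas 2.3.3, scipy 1.17.1 and matplotlib 3.10.9. Strand came from the RefSeq promoter table. All 123 list genes matched by symbol. Distances were tested on simulated data (200 of 200 recovered). Named were Pkhd1, Ahi1, Pkd1, Pkd2, Smyd2, flanking genes, list genes with a region, and genes whose null-list region had the same reads and width (at most 6). The genes and lists were chosen with earlier results of these data known. Alternatives covered ties, width, shared regions, gene assignment and read minimums. No significance test was made.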

Additional observations from a re-analysis of the deposited data

How the results depend on the processing

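No paired analysis was possible because only 1 library per genotype was made, which also means that none can be omitted. Other settings gave 20 values, and 13 of them remained near the reported ones. With tied regions counted at their worst, the Pkhd1 region ranked 46 and the Ahi1 region 159 of 235, and at the mean of ties Ahi1 ranked 137. By reads per 150 bp, the best rank of Ahi1 among ties was 58. Among the 204 null-list regions not shared with wild type, the best rank among ties was 13 for Pkhd1 and 87 for Ahi1. With a minimum of 14 reads the null list named 1 of the cystic and cilium genes in place of 2, and with a minimum of 16 reads also 1, since the Ahi1 region has 13 reads. Giving regions to genes by overlap of the span, or within 5 kb or 50 kb, left 2 genes in null and 1 in wild type. The Poisson intervals of both regions begin below 11, the lowest read number in the list.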

Other observations

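Named after their values were seen were the cystic and cilium genes within 100 kb of a null-list region. They were 5 of the 123 (4.07%), Pkhd1 and Ahi1 included, where 2.65% of all protein-coding genes lay that near. Nothing is read from this count, since Pkhd1 and Ahi1 were chosen for being listed. Besides Pkhd1 and Ahi1 the null-list genes were Nphp4, a transition zone gene of nephronophthisis, 62.0 kb from a region of 18 reads assigned to Kcnab2, Bbs4, a BBSome subunit gene, 70.8 kb from a region of 12 reads assigned to Arih1, and B9d1, a transition zone gene, 87.3 kb from a region of 11 reads assigned to no gene.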
